A study of Mus musculus with 6 samples.

Results

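The epidermal differentiation complex is a run of neighbouring genes on mouse chromosome 3 that make much of the outer, cornified layer of the skin. Its members were taken as the array probes placed by the deposited annotation, in the mm8 build, with a start between 90300000 and 94000000 on chromosome 3 and a gene name of the S100a, Sprr, Lce, Flg, Lor, Ivl, Rptn, Tchh, Kprp, Crct1, Crnn, Pglyrp or Smcp series. RIKEN-named probes of the same window were included, and S100a8 and S100a9 were left out. The rule gave 44 of the 20868 probes of the array, each for a different gene. They comprised 12 Sprr genes, 12 Lce genes, 9 S100 genes, 3 genes of the fused S100 type (Flg, Rptn and Tchhl1), 5 other envelope or neighbouring genes (Lor, Ivl, Kprp, Crct1 and Smcp) and 3 others. The others were Chtop, which encodes a chromatin and RNA export protein, and the RIKEN-named 1700012F11Rik and 2310050C09Rik.

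When keratinocytes leave the basal layer and differentiate, they replace their plasma membrane with a cornified envelope, a shell of proteins joined by transglutaminases. Involucrin (Ivl) is laid down early in that shell, loricrin (Lor) is its main reinforcing protein, and small proline-rich (Sprr) and late cornified envelope (Lce) proteins are cross-linked into it. Filaggrin (Flg) and repetin (Rptn) belong to the fused S100 proteins of the granular layer, while the small S100 proteins bind calcium and act in many cell types.

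Total RNA came from the mouse cells that the series title calls HACA, carrying hairpins against Loxl2 (shLoxl2) or Snail (shSnail), and every array also held RNA of the control cell line with a hairpin against GFP (shGFP) in its second channel. There were 2 numbered RNA samples of each silenced group. Each shLoxl2 sample was hybridised in both dye orientations, on 4 arrays in all, and each shSnail sample on 1 array with the silenced RNA in Cy5. The labels give neither the number of clones nor the hairpin sequences, and do not say that the samples were grown separately. Hence p-values measure only the spread between numbered samples of both groups, which may be technical.

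Group names are those of the labels, because the probes for the targeted genes did not show a fall. The Snai1 probe gave -0.09 ± 0.23 (log2, SE) in shSnail and its spots were not clearly brighter than background in either shSnail sample. The Loxl2 probe read 1.38 and 1.04 with the shLoxl2 RNA in Cy3 but -1.30 and -0.68 with it in Cy5, so that its sign followed the dye, and the averaged value was 0.11 ± 0.12 (SE). Its spots were clearly brighter than background in 2 of 4 silenced and 1 of 4 control channels of the shLoxl2 arrays. That average is therefore not a measure of silencing. Of 16 basal keratinocyte markers, 14 were well above background in every control channel, Krt5 and Krt14 among them. So were 3 of 7 simple epithelial markers (Krt18, Krt19 and Muc1), 4 of 12 leukocyte, 4 of 12 fibroblast, 1 of 7 melanocyte and 0 of 7 endothelial markers on the array. In the control channels of the shLoxl2 arrays Krt18 stood at 15.6 (log2 intensity), beside 15.5 for Krt5 and 13.7 for the fibroblast marker Vim. Well above background means the scanner software's own call for a spot. Between 85.4% and 92.4% of spots were so called in red and between 55.9% and 74.9% in green. The shLoxl2 arrays were extracted with a different software protocol from the shSnail arrays and on another scan day, so these differences cannot be told apart from the difference between the silenced groups.

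All values below are log2 ratios of silenced over shGFP RNA, and 1 unit is a doubling. For shLoxl2 the dye effect cancels when the arrays of a sample are averaged. For shSnail each probe's dye effect, estimated from the dye-swapped shLoxl2 arrays, was subtracted, and single shSnail array values are printed before that step. Errors are standard errors (SE) of limma's fit, with 2 samples in a group. Their spread was estimated over the samples of both silenced groups together, and for shSnail over the 2 dye effect estimates as well. An SE is thus not the spread of the 2 samples of its own group alone. A gene "rose" or "fell" where limma's p-value, adjusted by Benjamini-Hochberg over the 19719 probes tested, was below 0.05. Tested were 41 of the 44 members. Sprr1a and Lce1f had an outlier-flagged spot on 1 array, and Tchhl1 was too dim.

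The stretch before the transcription start is shown for 6 members whose values the results turn on. Among them are Sprr2d, Sprr2f and Sprr2h, which rose under shLoxl2 and then differed under shSnail, and Ivl, which fell under shSnail. Also shown are Lce1a2, which rose under shLoxl2, and Lce1g, which did not. Other Lce genes lie between Lce1a2 and Lce1g. The 220 bases end at the base before the start, are from RefSeq in GRCm38.p6 and run 5′ to 3′ on the gene's strand. Capitals mark any of 5 motifs searched on both strands: TATAAA (the TATA box), ATAAAA (which overlaps it where TATAAAA is read), TGANTCA (the AP-1 site), ATTTGCAT (the octamer) and CAGGTG (the E-box bound by Snail factors, CACCTG on the other strand). They lie at chr3:92338920-92339139 (+ strand) for Sprr2d, chr3:92364967-92365186 (+ strand) for Sprr2f, chr3:92385465-92385684 (+ strand) for Sprr2h, chr3:92670316-92670535 (- strand) for Lce1a2, chr3:92752339-92752558 (- strand) for Lce1g and chr3:92573736-92573955 (- strand) for Ivl.
Sprr2d: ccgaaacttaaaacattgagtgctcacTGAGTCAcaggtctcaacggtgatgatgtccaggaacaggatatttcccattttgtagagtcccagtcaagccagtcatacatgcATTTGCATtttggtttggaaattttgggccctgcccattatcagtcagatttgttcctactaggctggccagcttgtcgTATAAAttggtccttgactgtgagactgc
Sprr2f: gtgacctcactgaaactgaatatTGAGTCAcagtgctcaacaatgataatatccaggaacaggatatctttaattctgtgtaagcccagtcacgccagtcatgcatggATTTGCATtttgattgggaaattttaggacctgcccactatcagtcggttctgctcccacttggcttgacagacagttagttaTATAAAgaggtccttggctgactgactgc
Sprr2h: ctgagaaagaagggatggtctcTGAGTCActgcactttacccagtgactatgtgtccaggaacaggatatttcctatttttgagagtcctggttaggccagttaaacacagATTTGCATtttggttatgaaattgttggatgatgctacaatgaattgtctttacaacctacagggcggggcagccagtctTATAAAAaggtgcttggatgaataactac
Lce1a2: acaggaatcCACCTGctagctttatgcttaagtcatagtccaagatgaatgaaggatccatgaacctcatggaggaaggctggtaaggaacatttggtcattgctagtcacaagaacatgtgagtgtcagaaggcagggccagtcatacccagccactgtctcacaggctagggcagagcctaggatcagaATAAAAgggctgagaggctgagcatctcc
Lce1g: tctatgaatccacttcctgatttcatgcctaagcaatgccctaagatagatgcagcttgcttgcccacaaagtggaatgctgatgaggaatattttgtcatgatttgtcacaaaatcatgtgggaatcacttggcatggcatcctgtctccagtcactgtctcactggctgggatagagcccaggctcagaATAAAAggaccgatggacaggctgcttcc
Ivl: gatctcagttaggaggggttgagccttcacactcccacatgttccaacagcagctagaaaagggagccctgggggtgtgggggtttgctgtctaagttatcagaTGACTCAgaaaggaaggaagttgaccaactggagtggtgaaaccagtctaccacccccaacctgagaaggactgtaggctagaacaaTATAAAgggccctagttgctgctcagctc

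Promoters of 38 of the 44 members were in the RefSeq table, and motifs were counted over 250 bases before the start. The octamer ATTTGCAT was in 6 member promoters (15.8%), all of them of Sprr2 genes, against 1.6% of the 32851 promoters in the table. TGANTCA was in 14 member promoters (36.8%, against 6.75% of all), of which 6 were of the 7 Sprr2 genes with a promoter and 0 of the 11 Lce genes. TATAAA was in 17 (44.7%, against 12.4%) and ATAAAA in 21 (55.3%, against 17%). Among Lce promoters, 10 of 11 held ATAAAA, and the match in Lce1g stood at the same position, -29, as in Lce1a2. CAGGTG or CACCTG was in 6 member promoters (15.8%, against 17.2%), of which 0 were of Sprr2 genes. Over aligned bases of these promoters, Sprr2d was 78.9% identical to Sprr2f and 73.9% to Sprr2h, and Lce1a2 was 76.4% identical to Lce1g. A match describes letters in the window and not binding.

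The first comparison asked what silencing labelled shLoxl2 did to the complex. The arrays showed a broad rise: 24 of the 41 tested members rose and 0 fell, while 8.01% of all tested probes rose and 5.83% fell. The median member stood at 0.996, against -0.01 for all probes. Before adjustment, limma's p was below 0.05 for 29 members, all higher, and 0 lower. Each of the 24 that rose was above 0 on all 4 arrays. A called log2 fold change of at least 3 was reached by 19 probes of the whole array (0.0964%), and 11 of those 19 (57.9%) were members of the complex.

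Array values of shLoxl2 are given in the order replicate 1 in Cy3, replicate 1 in Cy5, replicate 2 in Cy3 and replicate 2 in Cy5. Kprp, a keratinocyte proline-rich protein of the differentiating epidermis (probe at chr3:92908553-92908612, mm8), read 4.73, 5.35, 4.29 and 5.02. Its fitted rise of 4.85 ± 0.13 (SE, limma adjusted p = 0.000316), 28.8-fold, ranked 2 among the rises of all probes. Crct1, a cysteine-rich protein named for its C terminus (chr3:93099673-93099732), read 3.72, 3.57, 6.17 and 4.17, with the silenced channel saturated on 3 of the 4 arrays. It rose by 4.41 ± 0.33 (SE, adjusted p = 0.00207), and was 5.17 without replicate 1 and 3.65 without replicate 2. Since saturated spots cap the silenced signal, the size of this rise is not an exact fold. Lor, the major structural protein of the envelope (chr3:92166211-92166270), read 1.58, 2.66, 1.58 and 2.45, which is lower in Cy3 than in Cy5 for both samples. Its rise was 2.07 ± 0.11 (SE, adjusted p = 0.000862), or 4.19-fold.

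Ivl, the early envelope precursor, did not move with them. Its probe (chr3:92656848-92656907) read -1.09, -0.03, 0.34 and 0.42, spanning 0, and the fit gave -0.09 ± 0.22 (SE, adjusted p = 0.824). Smcp, a sperm mitochondrial protein whose gene lies inside the complex, gave -0.01 ± 0.13 (SE), with 0.68, -0.31, 0.15 and -0.56 on the arrays. Without background subtraction, 9 of the 24 members that rose under shLoxl2 were lower by over 1.5 times (moves of -0.62 to -1.101 on the log2 scale), Kprp (4.06), Lor (1.45), Lce1b (2.82) and Lce1m (3.36) among them.

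**Figure D1:**
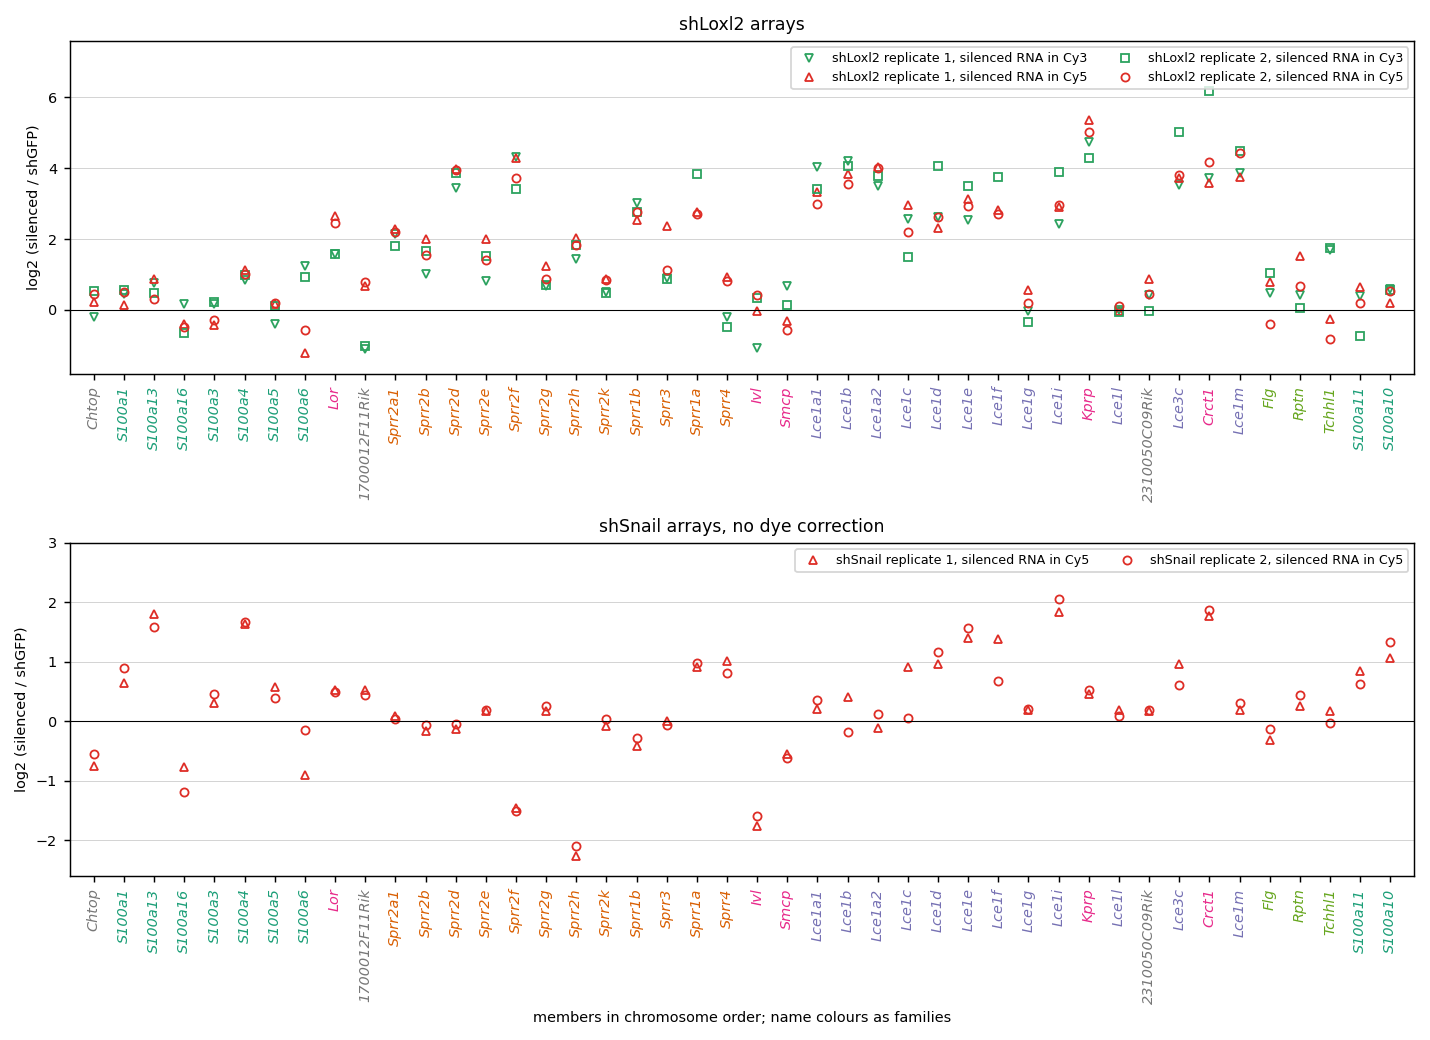
Log2 ratio of silenced over shGFP RNA (y axis) for each of the 44 members in chromosome order (x axis), with 1 point per array; shLoxl2 arrays above, shSnail arrays without dye correction below, green for silenced RNA in Cy3 and red for Cy5. The Sprr2, Sprr1, most Lce, Kprp, Crct1 and Lor points of shLoxl2 lie above 0 on every array shown, whereas Ivl, Smcp, Lce1g and Lce1l have points on both sides of 0.

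The Lce genes, which encode late envelope proteins of the stratum corneum, rose in 9 of the 11 cases tested, with a median of 3.05. Lce1m (chr3:93103310-93103369) read 3.87, 3.76, 4.49 and 4.42 and rose by 4.13 ± 0.17 (SE, adjusted p = 0.000594). Lce3c (chr3:93030953-93031012) read 3.53, 3.72, 5.03 and 3.82, with 1 saturated spot, and rose by 4.02 ± 0.21 (SE, adjusted p = 0.000862). The arrays of Lce1b gave 4.20, 3.84, 4.07 and 3.56, those of Lce1a2 gave 3.51, 4.05, 3.79 and 4.01, and those of Lce1a1 gave 4.03, 3.32, 3.42 and 2.99. The lowest array value of these 5 genes was the 2.99 of Lce1a1. Lce1i (3.05 ± 0.20, SE), Lce1e (3.02 ± 0.13), Lce1d (2.90 ± 0.21) and Lce1c (2.31 ± 0.28) rose as well. The control spot of Lce1c was well above background on 2 of 4 arrays, and its value was 1.27 without background subtraction and 4.16 with the scanner software's ratios. Replicate 2 in Cy3 was the highest array for Lce1d (4.07) and Lce1i (3.90), whose silenced spots were saturated on 2 and 1 arrays.

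A pair of Lce genes lay between risers and gave values near 0. Lce1g (chr3:92835666-92835725), the neighbour of Lce1f and Lce1i on the array's map, read -0.03, 0.57, -0.35 and 0.19, and its fit was 0.09 ± 0.13 (SE, adjusted p = 0.673). Lce1l (chr3:92935943-92936670) read -0.01, -0.02, -0.06 and 0.10, with a fit of 0.00 ± 0.11 (SE, adjusted p = 0.987). Both probes were well above background in both channels of every array. That call does not show that the signal came from the gene's own transcript, which was not tested. The T-cell gene Cd3e was called so as well, at a control level of 9.52 on shLoxl2 arrays with a ratio of -0.02. Lce1g and Lce1l stood at 8.63 and 8.54 in that channel (log2 intensity). The RIKEN-named 2310050C09Rik, which lies between Lce1l and Lce3c, gave 0.43 ± 0.14 (SE, adjusted p = 0.109), and 1700012F11Rik, between Lor and Sprr2a1, read -1.12 and -1.01 in Cy3 but 0.69 and 0.79 in Cy5.

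Of the Sprr genes, whose proline-rich products bridge other envelope proteins, 10 of the 11 tested rose, with a median of 1.55. The Sprr genes that rose included all 8 Sprr2 genes, from 0.67 in Sprr2k to 3.94 in Sprr2f. Sprr2f (chr3:92451740-92451799) read 4.33, 4.28, 3.40 and 3.73 and rose by 3.94 ± 0.18 (SE, adjusted p = 0.000594), or 15.3-fold. Sprr2d (chr3:92426202-92426261) read 3.44, 3.97, 3.85 and 3.94 and rose by 3.80 ± 0.11 (SE, adjusted p = 0.000316). Their neighbour Sprr2e, whose promoter was 90.7% identical to that of Sprr2d, read 0.80, 2.01, 1.53 and 1.41 and rose by 1.44 ± 0.11 (SE). Sprr2h (1.43, 2.02, 1.82 and 1.84), Sprr2a1 (2.15, 2.27, 1.81 and 2.19) and Sprr2b (1.01, 1.99, 1.66 and 1.55) were above 1 on every array. The lowest were Sprr2g, annotated in RefSeq as a transcribed pseudogene, at 0.87 ± 0.11 (SE) and Sprr2k at 0.67 ± 0.11. Without replicate 1 the Sprr2k rise stayed at 0.67 but missed the threshold (adjusted p = 0.0522). How far probes of these closely related genes detect each other's transcripts was not tested.

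Sprr1b, induced in squamous differentiation, read 3.01, 2.55, 2.78 and 2.75 and rose by 2.77 ± 0.11 (SE, adjusted p = 0.000594), and Sprr3 rose by 1.31 ± 0.17 (SE), with 2.37 on 1 array and between 0.87 and 1.12 on the others. Its control spot was well above background on 2 of the 4 arrays, and its value was 0.43 without background subtraction and 2.61 with the scanner software's ratios. Sprr1a had 2.77, 3.83 and 2.71 on the 3 arrays without a flagged spot, and Lce1f had 2.82, 3.75 and 2.72. With the flagged spots kept, these genes gave 2.92 ± 0.18 and 2.88 ± 0.23 (SE), with adjusted p = 0.00144 and 0.00244. Sprr4 was the Sprr gene that missed the threshold, with -0.21 and -0.47 in Cy3 but 0.92 and 0.82 in Cy5, a sign that followed the dye.

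The S100 genes at either end of the complex moved little under shLoxl2: 2 of 9 rose, with a median of 0.13. S100a4, a calcium-binding protein linked to cell motility, read 0.839, 1.13, 0.997 and 1.02 and rose by 0.996 ± 0.11 (SE, adjusted p = 0.00482), with the silenced spot saturated on 2 arrays. S100a13 rose by 0.60 ± 0.14 (SE, adjusted p = 0.0475), but without replicate 1 its value was 0.38 and the call was lost (adjusted p = 0.198). S100a10, the partner of annexin A2, gave 0.47 ± 0.12 (SE, adjusted p = 0.0603), also with 2 saturated silenced spots. S100a6 read 1.23 and 0.92 in Cy3 but -1.22 and -0.57 in Cy5, and its control spot was saturated on all 4 arrays, so that no fold can be read from it. The values of S100a1, S100a3, S100a5, S100a11 and S100a16 lay between -0.34 and 0.41, and Chtop gave 0.25 ± 0.15 (SE); none of these passed. With the scanner software's own ratios, the calls of S100a4 (0.95), S100a13 (0.64), Sprr2g (0.96) and Sprr2k (0.74) were lost. The fused S100 genes did not pass: Rptn gave 0.67 ± 0.17 (SE, adjusted p = 0.0524) and Flg 0.48 ± 0.13 (SE, adjusted p = 0.0648). Flg was well above background in 2 silenced and 1 control channels of the 4. Tchhl1 reached that level in 1 silenced channel and no control channel, and it read 1.68 and 1.75 in Cy3 but -0.26 and -0.82 in Cy5, so no fold is given.

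**Figure D2:**
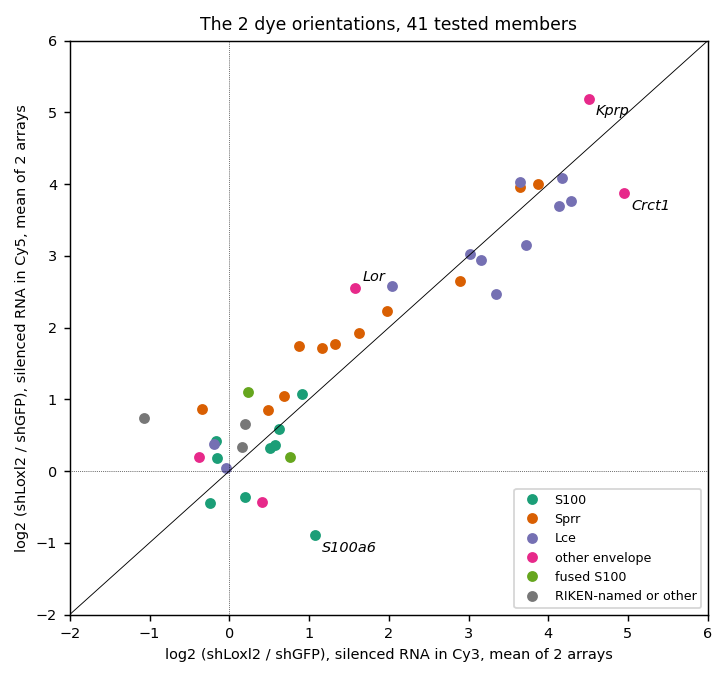
Mean log2 ratio of shLoxl2 over shGFP on the 2 arrays with silenced RNA in Cy5 (y axis) against the 2 with it in Cy3 (x axis), 1 point for each of the 41 tested members, coloured by family, with the line of equal values. Most Sprr and Lce points lie near the line above 1 on both axes, while S100a6 is positive in Cy3 and negative in Cy5.

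The mean of the Cy5 arrays and that of the Cy3 arrays had opposite signs for 10 of the 41 members, and 27 members (65.9%) kept 1 sign on all 4 arrays, against 27.1% of all probes tested. The dye effect itself, the part of a ratio that stays with Cy5 whichever RNA carries it, ran from -0.99 to 0.90 over the members, with a median of 0.09 against 0.06 for all probes. Over all tested probes, silenced over shGFP ratios followed the dye more than the sample. The Cy3 and Cy5 arrays correlated at 0.02 for shLoxl2 replicate 1 and at -0.03 for replicate 2. Between the replicates, the Cy3 arrays correlated at 0.72 and the Cy5 arrays at 0.75.

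The rise did not cover every gene of the window. Among 17 other probes there, 6 rose and 0 fell, with a median of 0.31 (8.01% of all probes rose and 5.83% fell). Of the 13 placed before the first member, 3 rose, none by more than 0.82. The largest was S100a9 at 2.72 ± 0.16 (SE), next to S100a8 at 0.98 ± 0.21, both subunits of calprotectin. A probe named only by a transcript of the Sprr2 stretch rose by 1.33 ± 0.11 (SE). Hornerin (Hrnr), another fused S100 gene, was well above background in none of the 4 silenced and 2 of the 4 control channels, and no fold is given for it.

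The second comparison asked the same of cells labelled shSnail. Here the complex did not move as a block: 9 of the 41 members rose and 5 fell, with a median of 0.07, while 8.77% of all tested probes rose and 12.5% fell. Before adjustment, limma's p was below 0.05 for 11 higher and 6 lower members. Without dye correction 16 rose and 6 fell (13% and 18.4% of all probes, 31.4% together), and with the dye effect scaled to its slope of 0.45 in these arrays 11 rose and 5 fell (8.8% and 14.1%). The 9 and the 5 were called under all 3 treatments. Median centring in place of loess gave 12 higher and 14 lower members (23.6% and 20.5% of all probes), and the scanner software's own ratios gave 9 and 3 (5.13% and 16.1%).

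The S100 genes contributed most of the rises, 5 of 9, with 1 fall. S100a13 read 1.81 and 1.59 on replicates 1 and 2 and rose by 1.72 ± 0.19 (SE, adjusted p = 0.00257). The arrays of S100a4 gave 1.63 and 1.67, a rise of 1.57 ± 0.13 (SE, adjusted p = 0.00144), and those of S100a10 gave 1.06 and 1.33, a rise of 1.30 ± 0.16 (SE, adjusted p = 0.00373). Smaller were S100a1, at 0.86 ± 0.17 (0.64 and 0.89 on the arrays), and S100a3, at 0.66 ± 0.14 (0.30 and 0.45). S100a16 fell by 0.88 ± 0.24, with -0.77 and -1.20. The calls of S100a3 and S100a16 were lost when either shSnail sample was left out, and that of S100a1 without replicate 2. Median centring gave 0.23 for S100a3, without a call, and with the scanner software's ratios S100a1 (0.55), S100a16 (-0.87) and Chtop (-0.79) did not pass. S100a5 and S100a11 gave 0.32 ± 0.17 and 0.44 ± 0.27 (SE) and did not pass, and S100a6 was saturated in the silenced channel of both arrays.

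Among envelope genes 4 rose. Crct1 read 1.78 and 1.87 and rose by 2.36 ± 0.51 (SE, adjusted p = 0.0204), a fit above both arrays because its dye effect of -0.54, from partly saturated shLoxl2 arrays, was subtracted; without dye correction it was 1.83. Lce1i, with 1.84 and 2.05, rose by 2.05 ± 0.32 (SE, adjusted p = 0.00711), Lce1d by 1.496 ± 0.32 (0.95 and 1.16 on the arrays) and Lce1e by 1.48 ± 0.23 (1.40 and 1.57). The fit of Lce1d also lay above both its arrays, as a dye effect of -0.44 was subtracted. That estimate came from shLoxl2 arrays of which 2 had a saturated silenced spot, and without dye correction Lce1d was 1.06. With median centring these values were smaller, at 1.65 for Crct1, 1.42 for Lce1i, 0.73 for Lce1d and 0.76 for Lce1e. The calls of Crct1 and Lce1d needed both shSnail samples, with adjusted p between 0.0753 and 0.0922 without either. The other Lce genes tested ran from -0.19 to 1.04 and did not pass, and Lce1a2 itself read -0.11 and 0.12. Lce1g gave -0.09 ± 0.16 (SE) and Lce1l 0.10 ± 0.13. Sprr1a read 0.90 and 0.97 and Lce1f 1.39 and 0.68. With the flagged spots kept, Sprr1a rose by 1.12 ± 0.31 (SE, adjusted p = 0.0488), while Lce1f gave 1.15 ± 0.37 (SE, adjusted p = 0.0743).

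Ivl and 2 Sprr2 genes were the envelope genes that fell. Its arrays read -1.76 and -1.60, and the fit gave -1.96 ± 0.32 (SE, adjusted p = 0.00836), or 0.256 of the control level. The size depended on the background correction: without background subtraction it was -1.14, and with the scanner software's ratios -3.59. Without replicate 1 the value was -1.89 and the call was lost (adjusted p = 0.0513). Sprr2h read -2.27 and -2.10 and fell by 2.33 ± 0.16 (SE, adjusted p = 0.00128), to 0.198 of control. Sprr2f read -1.47 and -1.52 and fell by 1.56 ± 0.24 (SE, adjusted p = 0.00723), or -2.30 with median centring. The other 6 Sprr2 genes gave values between -0.34 and 0.03 and did not pass. Chtop, at the start of the member order, fell by 0.75 ± 0.20 (SE, adjusted p = 0.0442), with -0.76 and -0.56 on the arrays, and lost its call without either sample; with median centring it was -1.34.

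Lor gave 0.02 ± 0.13 (SE, adjusted p = 0.952) under shSnail and Kprp 0.16 ± 0.17 (SE, adjusted p = 0.549), from arrays at 0.52 and 0.49 for Lor and 0.46 and 0.53 for Kprp. Without dye correction both passed, Lor at 0.504 (limma adjusted p = 0.0177) and Kprp at 0.497 (adjusted p = 0.0362). With the dye effect scaled neither passed, at 0.28 and 0.34. Sprr1b gave -0.23 ± 0.15 (SE), Smcp -0.16 ± 0.17, Rptn -0.09 ± 0.22 and 2310050C09Rik -0.04 ± 0.18, none of which passed. For Sprr3, Sprr4 and 1700012F11Rik the control was not well above background on either shSnail array, and no fold is given for them. Flg and Tchhl1 were above background in neither channel. Outside the member list, S100a8 fell by 4.55 ± 0.34 (SE) and S100a9 by 3.87 ± 0.20 within the same window.

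**Figure D3:**
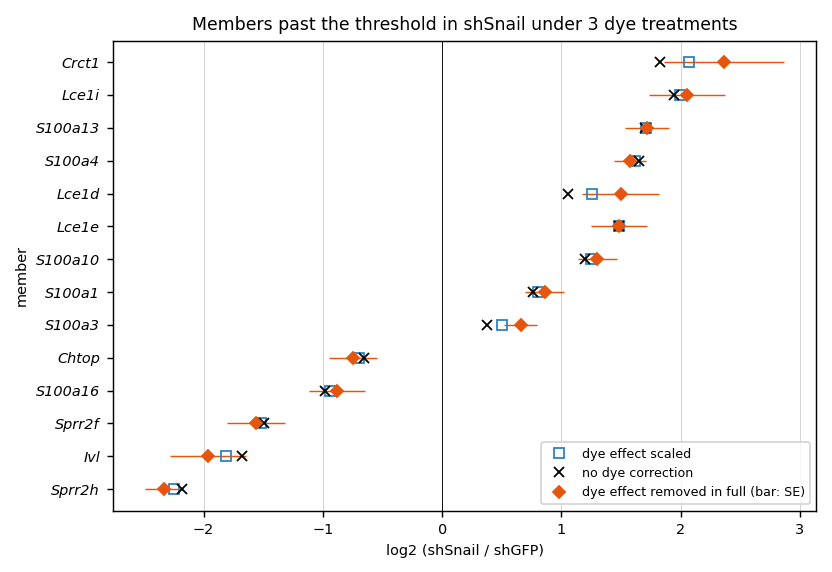
Log2 ratio of shSnail over shGFP (x axis) for the 14 members past the threshold (y axis), with the dye effect removed in full (diamonds, bars SE), scaled (squares) or left in (crosses). The 9 rises and 5 falls keep their sign under each treatment, from 2.36 in Crct1 to -2.33 in Sprr2h with full removal.

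The third comparison set the silenced groups against each other, on the 4 arrays with silenced RNA in Cy5, where a shared dye effect cancels. Of 41 members, 23 had a lower ratio to shGFP in the shSnail arrays and 2 a higher one, against 8.53% and 4.22% of all tested probes. The median difference was -0.99. The lower members comprised 9 of 11 Lce genes, 9 of 11 Sprr genes with all 8 Sprr2 genes among them, 4 of 5 other envelope genes and Chtop. Leaving out either shSnail sample left 10 lower members and 0 higher, with 0.223% and 0.193% of all probes then lower. Values of members that lost the call moved little in several cases, with Lor at -2.06 and -2.04 and Ivl at -1.79 and -1.95. Those 10 were Kprp, Sprr2d, Sprr2f, Sprr2h, Sprr1b, Lce1a1, Lce1a2, Lce1b, Lce1m and Lce3c. With the scanner software's ratios 20 were lower and 0 higher (9.95% and 2.21% of all probes). Among the lower members, Lce1i, Lce1d, Sprr2e, Sprr2g, Sprr2k and Chtop then lost their calls. Lce1i lost it too against the dye-swapped shLoxl2 average (-1.05).

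Sprr2f differed by -5.50 ± 0.23 (SE, adjusted p = 0.00234), Kprp by -4.69 ± 0.18, Sprr2h by -4.11 ± 0.17, Sprr2d by -4.05 ± 0.15 and Lce1a2 by -4.03 ± 0.17, each with the same adjusted p of 0.00234. By over 1.5 times, 16 of the 25 called members moved further from 0 under median centring (moves of -0.61 to -1.11 on the log2 scale), and 9 moved towards 0 without background subtraction (0.59 to 0.89). For Sprr2f the shLoxl2 arrays were at 4.28 and 3.73 and those of shSnail at -1.47 and -1.52. Ivl, unmoved in shLoxl2, was lower in shSnail by -1.87 ± 0.21 (SE, adjusted p = 0.0172), and Lor by -2.05 ± 0.16 (SE, adjusted p = 0.0131).

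Both higher members were S100 genes. S100a13 was higher in shSnail by 1.12 ± 0.24 (SE, adjusted p = 0.0440) and S100a3 by 0.75 ± 0.16 (SE, adjusted p = 0.0451). Neither kept its call when either shSnail sample was left out, nor with median centring (0.62 and 0.26), and S100a3 lost it too with the dye-swapped average of shLoxl2 in place of its Cy5 arrays (0.59).

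Set side by side, and sharing a shGFP control line, 6 members rose in both silenced groups (1.93% of all probes did). A further 16 rose in shLoxl2 and did not pass in shSnail, and 2, Sprr2f and Sprr2h, rose in shLoxl2 and fell in shSnail (0.669%). The 6 were Crct1, Lce1d, Lce1e, Lce1i, S100a4 and S100a13. For some members the shGFP channel itself differed between the array sets, so the groups were not measured from a common level. Lce1d stood there at 12.4 (log2 intensity) on shLoxl2 arrays and 8.32 on shSnail arrays, and Lce3c at 11.2 and 8.04. Lce1a2 went the other way, at 10.5 and 12.7, as did Sprr2b, at 10.3 and 12.4, while Sprr2h stood at 12.5 and 12.1. In the silenced channels of shLoxl2 and shSnail arrays, Sprr2b stood at 11.8 and 12.3, Sprr2k at 11.1 and 11.9 and Sprr2g at 10.97 and 11.1. Their lower ratio in shSnail thus came without a lower silenced level. The other members with a lower ratio also had a lower silenced level on shSnail arrays. The reason for the control differences was not tested.

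**Figure D4:**
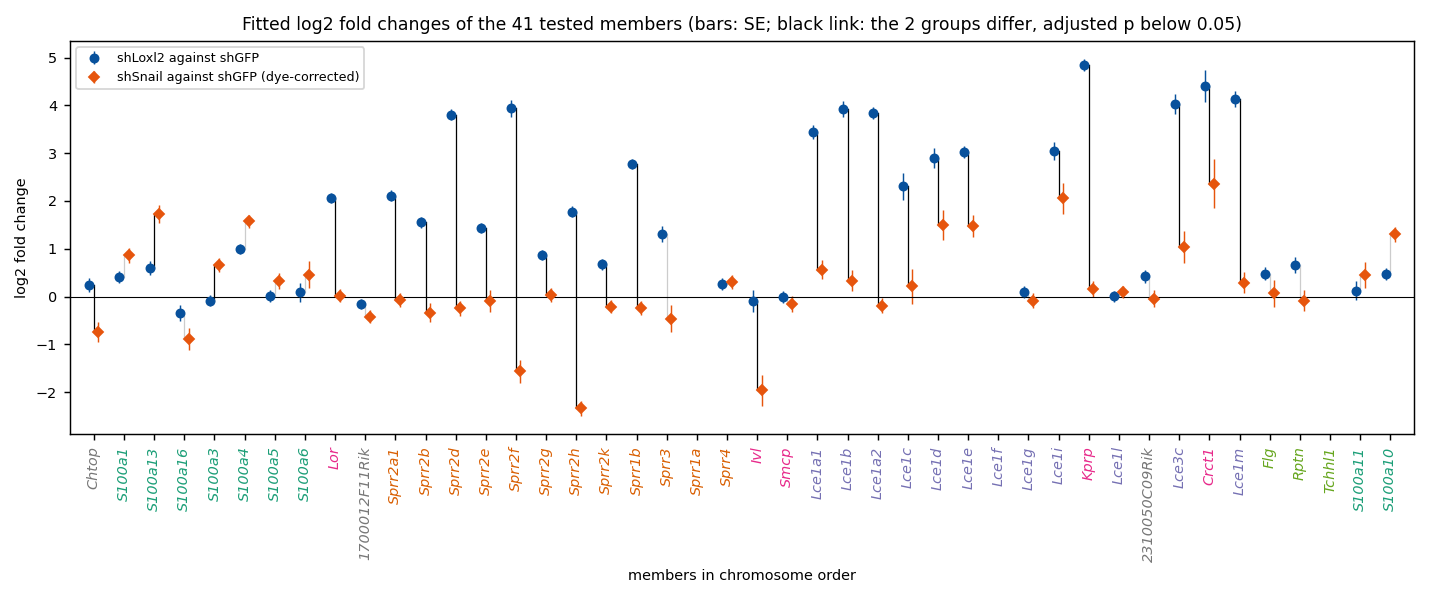
Fitted log2 fold changes against shGFP (y axis) of the 41 tested members in chromosome order (x axis), shLoxl2 as circles and dye-corrected shSnail as diamonds with SE bars; a black link marks members for which the groups differed at an adjusted p below 0.05. Sprr2f stands at 3.94 and -1.56, whereas S100a13 stands higher in shSnail at 1.72 against 0.60.

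Genes of the cornified layer elsewhere in the genome were read from a list of 50, of which 41 were tested. In shLoxl2, 20 rose and 1 fell, with a median of 0.62 (8.01% of all probes rose and 5.83% fell). Asprv1, the protease that processes filaggrin, rose by 5.0 ± 0.21 (SE, adjusted p = 0.000594). Klk7, a kallikrein protease of corneocyte shedding, rose by 4.42 ± 0.11, Spink5, its inhibitor, by 3.58 ± 0.11, and cornifelin (Cnfn) by 3.49 ± 0.15. In shSnail 5 of the 41 rose and 7 fell, not far from the 8.77% and 12.5% of all probes. Desmoplakin (Dsp) fell by 1.83 ± 0.15 (SE, adjusted p = 0.00135), dermokine (Dmkn) gave -2.01 ± 0.17 and Krtdap -2.29 ± 0.21. The lipoxygenase gene Aloxe3 rose, but its control was not well above background on either shSnail array, and no fold is given for it. Between the silenced groups 18 of the 41 were lower in shSnail and 1 was higher (8.53% and 4.22% of all probes).

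Known regulators of these genes were taken from a second list, with 41 of 45 tested. In shLoxl2, 10 rose and 4 fell (8.01% and 5.83% of all probes). Maf rose by 1.71 ± 0.18 (SE, adjusted p = 0.00451), Casz1 by 1.37 ± 0.12 and Zfp750 by 1.34 ± 0.12, all transcription factors of epidermal differentiation, while Trp63, the p63 gene of the basal layer, fell by 1.15 ± 0.12 (SE, adjusted p = 0.00447). In shSnail 1 rose and 13 fell (8.77% and 12.5% of all probes). Among the falls were 1.71 ± 0.15 in Trp63 (SE, adjusted p = 0.00146), 1.46 ± 0.14 in Nfe2l2 and 1.31 ± 0.13 in Gata3. Ehf, an ETS factor of epithelia, was lower in shSnail than in shLoxl2 by -1.78 ± 0.15 (SE, adjusted p = 0.0149). In that comparison 14 of the 41 were lower and 0 higher (8.53% and 4.22% of all probes). At an unadjusted limma p below 0.05, 22 were lower and 1 higher, beside 3884 and 2526 of the 19719 probes tested.

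Basal keratinocyte markers moved beside these groups. Of 16 on the list, 3 fell and 2 rose in shLoxl2 (5.83% and 8.01% of all probes), and 9 fell and 2 rose in shSnail (12.5% and 8.77%). Their median level was 10.4 in silenced and 10.97 in control channels of the shLoxl2 arrays, and 9.74 and 11.1 in those of the shSnail arrays (log2 intensity). Their part in the values of the complex was not tested, and in bulk RNA fewer cells of a type and less RNA per cell cannot be told apart.

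**Figure D5:**
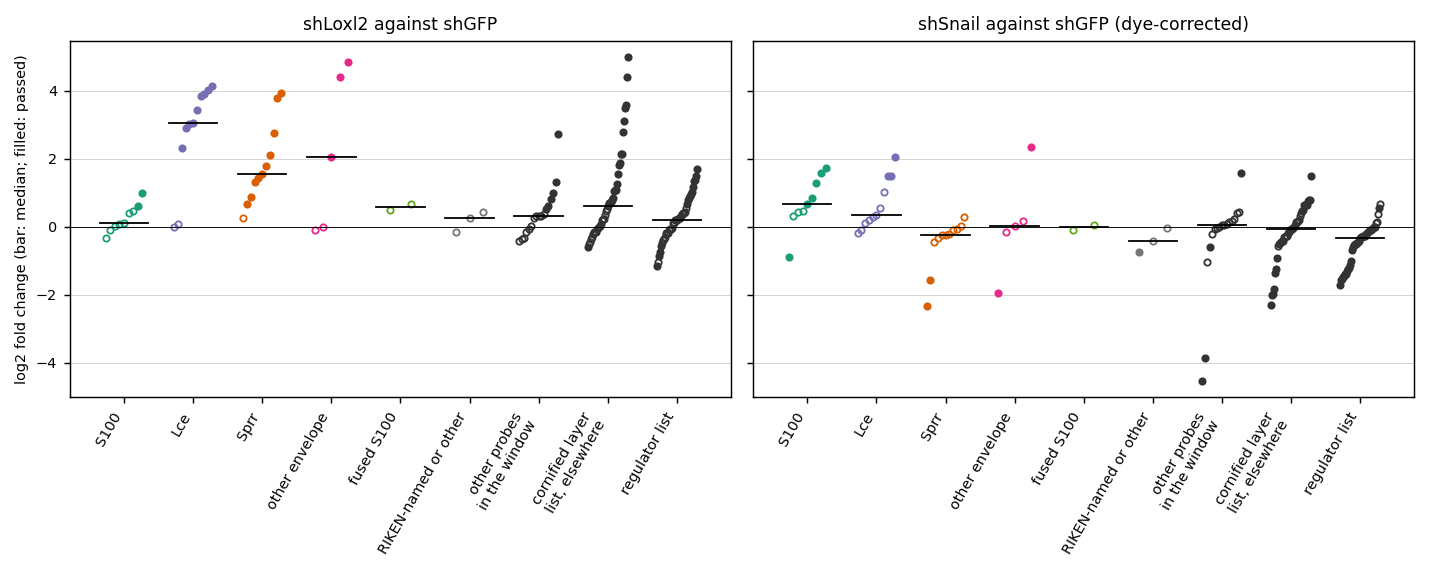
Log2 fold changes against shGFP (y axis) by gene group (x axis), shLoxl2 left and dye-corrected shSnail right; each point is a tested probe, filled where it passed, and bars are medians. In shLoxl2 the Lce and Sprr medians are 3.05 and 1.55 and the S100 median 0.13, whereas in shSnail the S100 median is 0.66 and the Sprr median -0.23.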

How the data were processed

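Intensity values for the Cy3 and Cy5 channels of each spot are those the authors deposited from the scanner software, Agilent Feature Extraction (9.5.1.1 in the headers of the files, 6.1.1 by the submitters' processing notes). Its log10 ratio of red over green stands in the deposited files too, and the authors' value table repeats it, rounded. There, the second shSnail column repeated the first and equalled its own scan, to within 0.006, at 8.83% of probes. That table served as an alternative, without this column.

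From mean and background intensities, each array was corrected by normexp (offset 50) and loess in limma 3.58.1 (R 4.3.3), control and outlier spots at weight 0. Spots were averaged to 20868 probes. Tested were 19719 probes well above background in a channel on at least 2 arrays and measured on all 6. shLoxl2 was fitted on the 2 dye-swap averages with the shSnail values sharing the spread (2 residual degrees of freedom), shSnail with a dye coefficient (3), and the groups against each other on Cy5 arrays (2). Direction came from the labelled dyes. Names came from RefSeq accessions (40 of 44 members); the file's name was kept otherwise. Probe positions are the file's, in mm8. Promoters were aligned with Biopython 1.88. The fits were tested on simulated data.

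The members and gene lists were chosen with earlier results of these data known. Full values are given for members among the 10 largest rises or 5 largest falls past the threshold with 1 direction on every array, and for the brightest of each family; up to 4 genes by smallest p are named from the lists of cornified layer genes and regulators, 1 of which is not reported here. Other members are named to account for all 44. Alternatives were other background corrections, normalizations, filters and dye treatments, and leaving out samples; keeping outlier spots was chosen after seeing the data.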

Additional observations from a re-analysis of the deposited data

Results flagged for a closer look

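Sprr2f differed by -5.50 (log2) between shSnail and shLoxl2, and Sprr2h by -4.11 (limma adjusted p = 0.00234 for both differences). Each rose in 1 silenced group and fell in the other against the shGFP RNA of the same arrays. Control levels on shLoxl2 and shSnail arrays were 9.93 and 9.53 for Sprr2f, and 12.5 and 12.1 for Sprr2h (log2 intensity). All 4 shLoxl2 arrays of both genes were above 0 and both shSnail arrays below it. Across the array 132 probes (0.669%) rose in shLoxl2 and fell in shSnail.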

How the results depend on the processing

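For shLoxl2, the count of members that rose was 22 and 26 with a sample left out and 21 to 26 under the other settings except the authors' value table, and 0 fell under any of them. With that table, limma called 0 members and 0 of all probes in each comparison, although 25 of 40 members in shLoxl2, 14 of 41 in shSnail and 23 of 41 between the groups had an unadjusted p below 0.05; the cause was not tested. For shSnail, no dye correction gave 16 rises and median centring 14 falls, the scanner software's ratios gave 3 falls, and leaving out a sample gave 5 to 6 rises and 2 to 3 falls, with the lone sample assumed to vary like the others; of all probes 2.89% and 3.61% then rose and 5.14% and 6.5% fell. Between the silenced groups, higher members numbered 4 without background subtraction, 5 with median centring, 0 with scanner ratios and 0 to 3 with a sample left out, and lower members 10 to 27 with a sample left out; the cause was not tested. Of all probes between the groups, 5.19% stood higher without background subtraction, 25.4% with median centring and 2.21% with scanner ratios. In the same order, 11.1%, 22% and 9.95% stood lower. The 5 of 41 members higher with median centring were thus a smaller share than that of all probes. Median centring moved the median of all probes from -0.04 to 0.10 in shSnail and from -0.04 to 0.12 between the groups, and scanner ratios moved both to -0.28. No call of a member reversed its direction.

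Samples share only a replicate number. Deviations of same-numbered Cy5 arrays correlated at 0.21 over probes with 2 pairs, and a replicate block between the groups gave 3 higher and 22 lower members (2 and 23 without it), and 870 and 1839 of all probes (833 and 1683 without it). The precision is limited by 2 samples a group, by saturated silenced spots in 8 members and by control channels below background in some arrays: 32 of the members were well above background in every control channel.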

Other observations

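Outside the window, the probes whose 6 array values ran closest to the members' mean were Paox, a polyamine oxidase, Klk7, Clba1, Spink5 and Nbl1, a secreted BMP antagonist. Their Pearson correlations ran from 0.997 to 0.999 over the 6 arrays, which share the shGFP control line and fall into the silenced groups, so the likeness is a description. The members' mean was 1.49, 1.74, 1.64 and 1.60 on the shLoxl2 arrays and 0.23 and 0.25 on those of shSnail. Paox rose by 1.62 ± 0.11 (SE) in shLoxl2 and stood at -0.24 ± 0.13 in shSnail, and Nbl1 stood at 0.99 ± 0.11 and -0.54 ± 0.14.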
